A study of Homo sapiens with 6 samples.

Results

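SR proteins and hnRNPs were examined as a group of splicing regulators in long-read cDNA libraries from Calu-6 cells. Members were the genes whose symbols begin with SRSF and a digit or with HNRNP (without pseudogene symbols or hyphenated readthrough names), together with TRA2A, TRA2B, U2AF1, U2AF2 and PTBP1. The rule found 32 of the 10072 genes in the count table and 125 of its 21472 transcript models, while U2AF2 and PTBP1 were not analysed here. By role, 10 members were SRSF genes, 2 were TRA2 genes, 1 was a U2AF subunit and 19 were hnRNP genes. All 6 libraries came from Calu-6, a long-established human lung cancer line with the genotype labelled WT, transfected for 48 h at 10 nM with a non-silencing siRNA (siControl) or with an siRNA directed at the junction that defines the TERT splice variant Delta 2-4 (siDelta2-4). Each group had 3 libraries, which the study calls biological replicates; how the cultures were kept apart is not given in the sources used here, so p-values measure the spread between these libraries. The count columns carried the word Empty, which in the study's methods names a stable Calu-6 line with an empty Flag-V5 vector, selected as a population after lentiviral infection, so both groups shared that vector although the labels do not mention it. TERT was not analysed here, so the knockdown itself was not checked.

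Serine/arginine-rich (SR) proteins bind exonic enhancers and help the spliceosome recognise neighbouring splice sites, and the TRA2 proteins are SR-like activators of the same kind. The hnRNPs coat nascent RNA, often oppose SR proteins at exons, and also act in RNA export, stability and translation. U2AF1 is the small subunit of the factor that reads the AG at the 3′ splice site. Many of these genes regulate their own messages by making transcript forms with a premature stop codon, which nonsense-mediated decay removes, so their own splicing is part of their regulation.

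Total counts were 1037468 to 1106413 in siControl and 1070009 to 1309241 in siDelta2-4, and libraries are named below by group and rank of total, H for the highest, M for the middle and L for the lowest. siControl L stood apart from its group: its mean correlation of log2 CPM was 0.978 with the other siControl libraries and also 0.978 with the siDelta2-4 libraries, whereas the other siControl libraries correlated at 0.981 and 0.982 with their own group and at 0.973 and 0.974 with siDelta2-4. Of the 6 epithelial markers examined, the keratins KRT18, KRT8, KRT7 and KRT19 had 1124, 824, 41 and 1 counts and EPCAM had 13. Of the 3 mesenchymal markers, VIM had 987 counts and FN1 had 2. The remaining marker of each of these lists was not analysed here. None of the 4 blood, 2 endothelial or 3 fibroblast markers examined had a count.

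Together the members received 8448 counts, of which 5840 fell on hnRNP genes, 2362 on SRSF genes, 175 on TRA2 genes and 71 on U2AF1. HNRNPA1 alone received 3133. Members made up 0.110%, 0.108% and 0.125% of all counts in siControl H, M and L, and 0.128%, 0.145% and 0.129% in siDelta2-4 H, M and L. The groups did not overlap on this scale, though 27 member models had 0 counts in siControl and 0 had 0 counts in siDelta2-4. The sum leans on HNRNPA1, so its separation need not hold for the other members, and a sum without this gene was not tested. By role, the hnRNP share and the SRSF share were each higher in every siDelta2-4 library than in any siControl library. The TRA2 share overlapped between groups, and the U2AF1 share was lower in every siDelta2-4 library. These shares are of unscaled library totals, on which the median gene also lay 0.09 (log2) above 0 in siDelta2-4, against 0.03 with TMM scaling. In a bulk sample fewer cells that express a gene and less RNA per cell cannot be told apart.

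The comparison of siDelta2-4 with siControl addressed whether RNA of these regulators changed after transfection with the Delta 2-4 siRNA. Of the 32 members, 14 passed the filter on low counts and 18 did not. HNRNPDL and HNRNPA1, both hnRNP genes, were called higher in siDelta2-4 at an adjusted p under 0.1 (edgeR quasi-likelihood test with Benjamini-Hochberg adjustment over all 3888 genes tested), and 0 members were called lower. These 2 calls among 14 stand beside 13% of all genes tested (7% higher and 5.97% lower). The log2 fold change lay above 0 in 9 of the 14 members and below 0 in 5, with a median of 0.12 against 0.03 over all genes tested. When a trend on transcript length was removed from each library the members' median was -0.05 and that of all genes -0.01, so the direction of the median turned with this setting. Of the 14, 3 members had higher CPM (normalised read count, scaled to the TMM-adjusted total of each library) in every siDelta2-4 library than in any siControl library and 1 had lower CPM in every one, 4 in all, against 26% of all genes tested.

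By role, the log2 fold change was above 0 in 7 of the 8 hnRNP genes tested. The log2 fold change there had a median of 0.22 and a range from -0.18 to 0.76. Of these genes 2 were called, beside 13% of all genes tested. Among the 5 SRSF and TRA2 genes tested it was above 0 in 2 and below 0 in 3, from -0.28 to 0.19, and 0 were called. These counts describe the genes that passed the filter, and the difference between the roles was not tested. With the length trend removed the log2 fold change was 0.58 in HNRNPDL, 0.36 in HNRNPA3, 0.32 in HNRNPH3 and 0.02 in HNRNPC. In HNRNPA1, HNRNPA1L3, HNRNPA2B1 and HNRNPF it was 0.07, 0.0099, -0.10 and -0.36, and HNRNPA1 was then not called. Individual signs near 0 were not stable across settings, since HNRNPA2B1 and SRSF3 turned negative with the length trend removed, SRSF5 turned negative with known models alone, and SRSF7 turned positive with unscaled library totals.

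**Figure D1:**
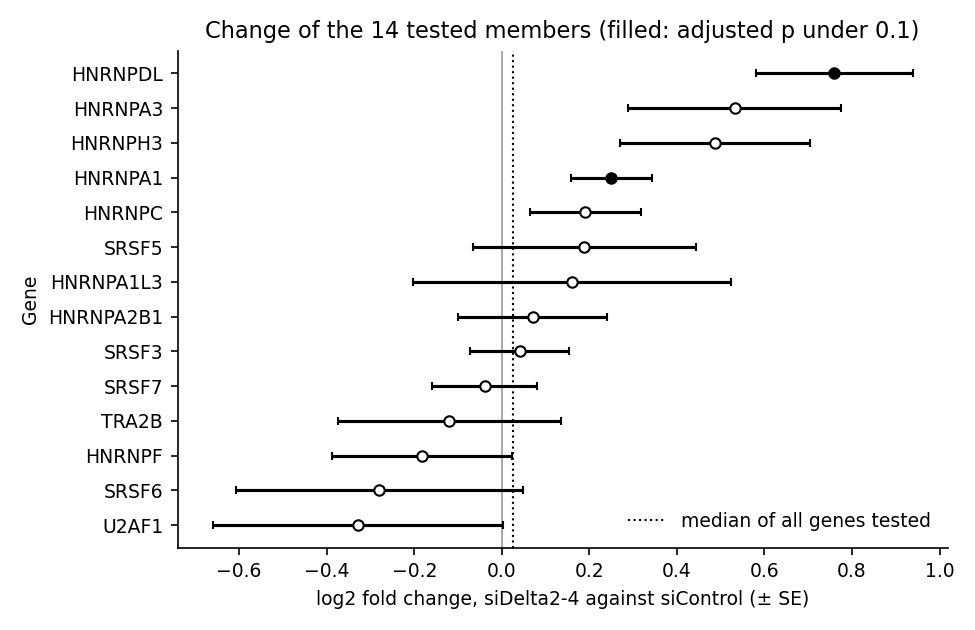
Log2 fold change of the 14 tested members (siDelta2-4 against siControl, x axis) with its standard error, one gene per line; filled points had an adjusted p under 0.1 and the dotted line marks the median of all genes tested, 0.03. HNRNPDL at 0.76 and HNRNPA1 at 0.25 are the filled points, and U2AF1 at -0.33 is the lowest.

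HNRNPDL (chr4:82422565-82430462, minus strand, GRCh38) encodes an RNA-binding protein related to hnRNP D that takes part in splicing. Its CPM was 45.8, 30.7 and 46.0 in siControl H, M and L, and 66.0, 71.5 and 70.2 in siDelta2-4 H, M and L. Every siDelta2-4 library lay above every siControl library, and siControl M was the lowest of all. The means were 40.8 ± 8.8 and 69.2 ± 2.9 CPM (SD, n = 3 each), with log2 fold change 0.76 ± 0.18 (± SE, edgeR adjusted p = 0.00807). The call was made under every alternative run; the log2 fold change was 0.58 with the length trend removed (adjusted p = 0.0387), 0.59 without siControl M (adjusted p = 0.0879) and 0.83 without siControl L, which stood apart (adjusted p = 0.000804). All 376 counts of HNRNPDL fell on 4 known models, and no annotated gene on the opposite strand overlaps it. Its main model, HNRNPDL-208, took 43, 32 and 44 counts among siControl libraries and 76, 77 and 67 among siDelta2-4 libraries, with log2 fold change 0.70 ± 0.18 (edgeR adjusted p = 0.0256). It was the only called model among the 28 member models tested, beside 6.91% of all 6768 models tested. That call, unlike the call on the gene, was lost with the length trend removed, without siControl M and without siDelta2-4 M.

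HNRNPDL-208 holds a coding cassette exon of 171 bases at chr4:82426463-82426633 that HNRNPDL-207 skips. The exon encodes part of the tyrosine-rich C-terminal stretch of the protein. It is shown because its share did not overlap between groups, with the exon in capitals and 10 bases of the flanking exons on each side in lower case, 5′ to 3′ on the transcript strand.
HNRNPDL exon: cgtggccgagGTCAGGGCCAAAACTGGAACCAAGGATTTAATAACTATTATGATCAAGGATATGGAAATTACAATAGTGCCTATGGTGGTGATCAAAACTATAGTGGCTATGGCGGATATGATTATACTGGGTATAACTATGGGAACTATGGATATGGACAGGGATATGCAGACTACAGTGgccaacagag
Counts without the exon were 2, 0 and 2 in siControl and 7, 6 and 5 in siDelta2-4. The exon was present in 95.6%, 100% and 95.7% of the counts of both models in siControl and in 91.6%, 92.8% and 93.1% in siDelta2-4. The groups did not overlap, with means of 97.1% ± 2.54 and 92.5% ± 0.791 and a difference of -4.60 percentage points (exact two-sided permutation p = 0.1, the smallest that 3 libraries against 3 can give). The model without the exon had 22 counts in all, and siControl M had 0 of 32, which allows a skipped share of up to 9.38%. This exon was 1 of the 6 alternative coding segments reported here, all chosen after the values were seen.

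HNRNPA1 (chr12:54280193-54287088, plus strand), among the most abundant hnRNPs and a classical antagonist of SR proteins at splice sites, was the other called gene. Its CPM was 434.8, 380.7 and 455.0 in siControl and 492.6, 523.3 and 495.3 in siDelta2-4, in the order H, M and L that is used throughout. All siDelta2-4 values lay above all siControl values, with means of 423.5 ± 38.4 and 503.7 ± 17.0. The log2 fold change was 0.25 ± 0.09 (edgeR adjusted p = 0.0934). This call was not stable: it was kept in 3 of the 16 alternatives and lost in 13, with the log2 fold change at 0.07 after removal of the length trend (adjusted p = 0.661), 0.18 without siControl M (adjusted p = 0.443) and 0.28 without siControl L (adjusted p = 0.0187).

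**Figure D2:**
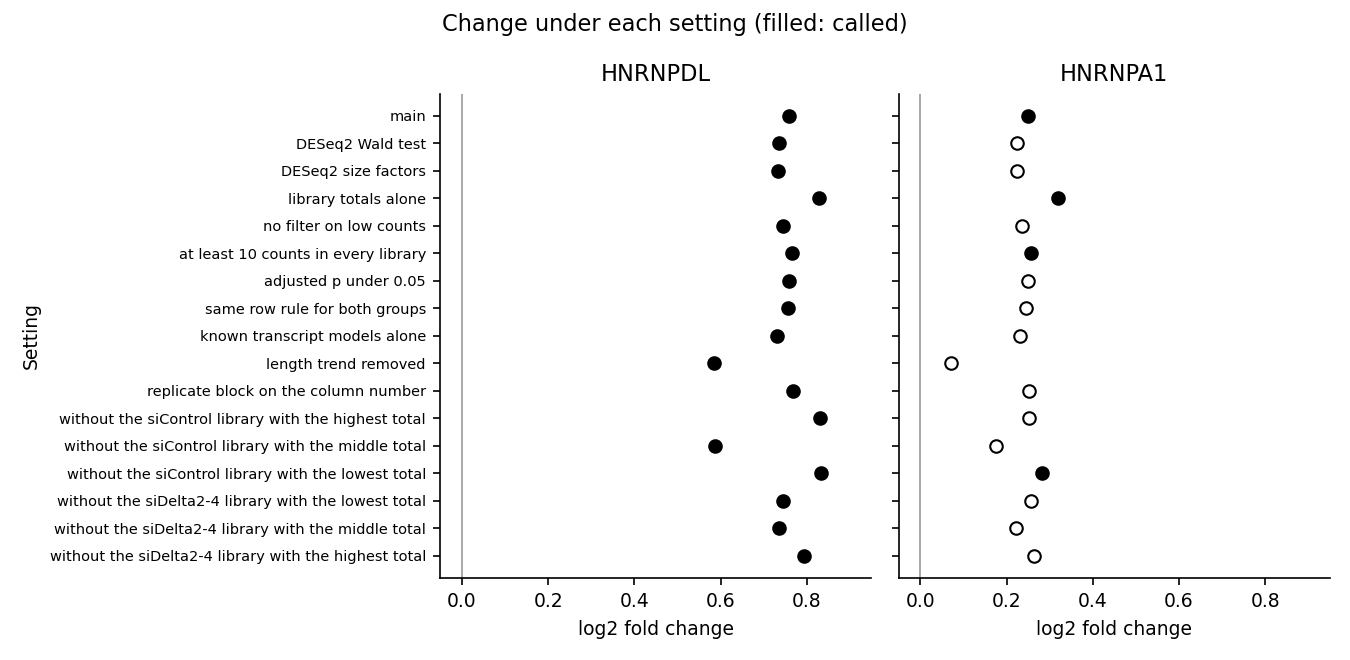
Log2 fold change of HNRNPDL (left) and HNRNPA1 (right) under the reported setting and each alternative, named on the y axis; filled points were called. HNRNPDL is filled throughout, between 0.58 and 0.83, while HNRNPA1 is filled in the reported setting and 3 alternatives and falls to 0.07 with the length trend removed.

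HNRNPA1-203, the main model, took 334, 288 and 358 counts under siControl and 488, 484 and 386 in siDelta2-4 and did not pass the test (log2 fold change 0.29 ± 0.10, edgeR adjusted p = 0.101). HNRNPA1-205, annotated as a nonsense-mediated decay target, had 9, 13 and 11 counts against 22, 20 and 19, without overlap between groups, with log2 fold change 0.70 ± 0.31 (edgeR adjusted p = 0.221). HNRNPA1 has near-identical copies whose reads could be exchanged with it. HNRNPA1L3, a single-exon copy that is itself a member, had CPM from 6.7 to 11.5 in siControl and from 8.1 to 11.5 in siDelta2-4 (log2 fold change 0.16 ± 0.36, edgeR adjusted p = 0.839), and HNRNPA1L2 had 7 counts. Of the pseudogenes, HNRNPA1P49 was counted 12, 15 and 11 times among siControl libraries and 22, 19 and 27 times among siDelta2-4 libraries, without overlap and in the direction of HNRNPA1 itself. HNRNPA1P7 had 7, 13 and 10 against 16, 14 and 6, and HNRNPA1P10 had 7, 12 and 19 against 0, 3 and 9, both with overlap. In all they had 106, 66 and 50 counts beside the 3133 of HNRNPA1, and the part of exchanged reads in its value was not tested.

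**Figure D3:**
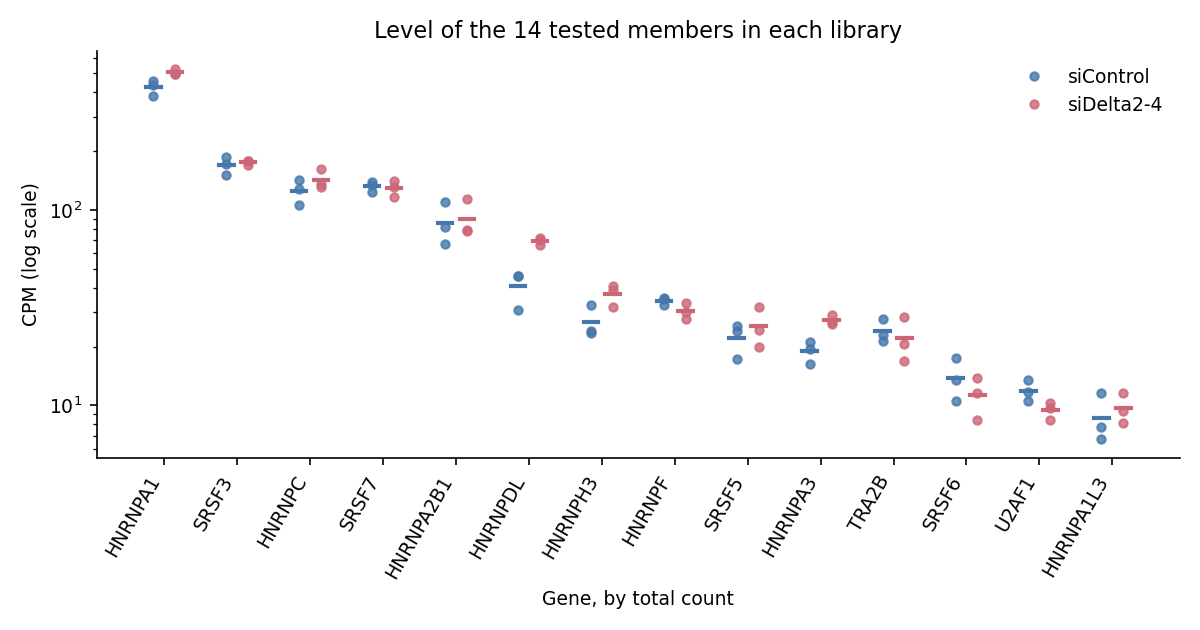
CPM on a log axis of the 14 tested members in each of the 6 libraries (points) with the group mean (bar), siControl in blue and siDelta2-4 in red, genes ordered by total count. HNRNPA1, HNRNPDL and HNRNPA3 show all 3 siDelta2-4 points above the siControl points and U2AF1 shows them below.

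HNRNPA3 and HNRNPH3 had the largest log2 fold changes among members that did not pass the test. HNRNPA3, a relative of HNRNPA1 that acts in RNA trafficking, had 19.5, 21.1 and 16.3 CPM in siControl and 29.2, 26.8 and 26.2 in siDelta2-4. The groups did not overlap, with log2 fold change 0.53 ± 0.24 (edgeR adjusted p = 0.180). Its main model, HNRNPA3-201, held 87 of its 158 counts. HNRNPH3, a member of the hnRNP H/F family that binds runs of guanine, had 23.4, 24.0 and 32.6 CPM in siControl and 39.1, 40.6 and 31.8 in siDelta2-4. The groups overlapped through siControl L, and the log2 fold change was 0.49 ± 0.22 (edgeR adjusted p = 0.166). Without that library HNRNPH3 was called (log2 fold change 0.64, edgeR adjusted p = 0.0498), beside 1041 of all 4098 genes tested in that fit. With all libraries and the same minimum counts for both groups its log2 fold change was 0.37 (edgeR adjusted p = 0.465). With known models alone it was 0.34 (edgeR adjusted p = 0.496). RUFY2, on the opposite strand with 179 counts, overlaps HNRNPH3 by 2087 bases and itself did not pass the test (log2 fold change 0.33, adjusted p = 0.428), and its part in the HNRNPH3 value was not tested.

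Between HNRNPH3-201 and HNRNPH3-202, both with the same number of exons, a coding stretch of 45 bases at chr10:68338643-68338687 is present or absent. The stretch is shown in capitals because the known models with and without it took near-equal counts.
HNRNPH3 segment: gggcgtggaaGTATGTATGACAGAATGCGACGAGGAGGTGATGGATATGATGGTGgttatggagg
It was present in 46.7%, 46.7% and 61.1% of the counts of both models in siControl and in 58.6%, 48.0% and 53.3% in siDelta2-4. Pooled, 62 counts held it and 55 did not, 53.0% (Wilson 95% interval 44% to 61.8%), and the groups overlapped (exact two-sided permutation p = 0.8). Unannotated models held 42.7% of HNRNPH3 counts and were not assigned to either form. The difference of 1.84 percentage points was 6.65 without siControl L.

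HNRNPC, a core hnRNP that measures RNA length and binds uridine tracts, had 127.7, 106.4 and 141.8 CPM in siControl and 135.8, 162.5 and 130.2 in siDelta2-4 (log2 fold change 0.19 ± 0.13, edgeR adjusted p = 0.388). The groups overlapped. The protein exists as C1 and as C2, which carries a short insert. The 39 bases of that insert, at chr14:21230958-21230996, are shown in capitals.
HNRNPC C2 insert: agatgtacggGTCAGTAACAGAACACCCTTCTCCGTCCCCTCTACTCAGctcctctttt
Known models with the insert took 36.7%, 50.8% and 40.7% of the counts of both known forms in siControl and 42.5%, 48.3% and 32.0% in siDelta2-4. Among these known models C1 took more counts in 5 of the 6 libraries. NIC models, which join annotated splice sites in an unannotated combination, held 36.0% of HNRNPC counts and were not assigned to C1 or C2. The larger form of the gene is therefore not settled. The means of 42.8% ± 7.29 and 40.9% ± 8.27 did not separate (exact two-sided permutation p = 0.8). Most counts on a single HNRNPC model fell on HNRNPC-204, a C1 form with 298 of the 906.

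HNRNPA2B1 encodes A2 and B1, which bind specific motifs in RNA for sorting and for microRNA processing. Its CPM was 67.3, 81.5 and 109.2 in siControl and 79.0, 113.8 and 77.7 in siDelta2-4, with wide overlap (log2 fold change 0.07 ± 0.17, edgeR adjusted p = 0.851). B1 differs by a coding exon of 36 bases near the start of the protein, at chr7:26197831-26197866, shown in capitals.
HNRNPA2B1 exon: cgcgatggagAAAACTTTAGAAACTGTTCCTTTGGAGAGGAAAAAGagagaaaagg
The B1 exon was present in 23.3%, 25.0% and 31.2% of the counts of HNRNPA2B1-201 (B1) and HNRNPA2B1-209 (A2) in siControl and in 22.2%, 28.2% and 27.1% in siDelta2-4. Of these known models that of A2 took more counts in every library, with 239 counts against 87, and the groups overlapped (exact two-sided permutation p = 0.9). Unannotated models held 43.6% of HNRNPA2B1 counts and were not assigned to A2 or B1. The difference of -0.681 percentage points was 1.68 without siControl L. HNRNPF, which binds guanine runs, had 35.1, 35.5 and 32.6 CPM in siControl and 27.6, 33.3 and 30.0 in siDelta2-4, with overlap (log2 fold change -0.18 ± 0.21, edgeR adjusted p = 0.639). Its main model, HNRNPF-208, held 103 of 216 counts.

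Among SR proteins, SRSF3 and SRSF7, small SR proteins that also couple splicing to RNA export, received the most counts. SRSF3 had 187.2, 171.7 and 151.3 CPM in siControl and 177.3, 169.8 and 177.9 in siDelta2-4. The siDelta2-4 values lay within the siControl range, and the log2 fold change was 0.04 ± 0.11 (edgeR adjusted p = 0.869). Of its 1159 counts, 1054 fell on SRSF3-202. SRSF7 had 123.8, 139.0 and 134.1 CPM in siControl and 130.4, 116.2 and 140.5 in siDelta2-4, with overlap (log2 fold change -0.04 ± 0.12, edgeR adjusted p = 0.879).

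SRSF7-201 and SRSF7-202 hold a coding cassette exon of 36 bases at chr2:38746144-38746179 that SRSF7-209 skips. It encodes part of the arginine/serine-rich domain and is shown in capitals because SRSF7 had the smallest usage p among members.
SRSF7 exon: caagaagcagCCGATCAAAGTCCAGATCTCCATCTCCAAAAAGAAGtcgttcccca
The exon was present in 81.1%, 80.7% and 71.0% of counts in siControl and in 88.2%, 80.3% and 81.8% in siDelta2-4. The lowest value was in siControl L, the groups overlapped, and the means were 77.6% ± 5.71 and 83.4% ± 4.19 (exact two-sided permutation p = 0.3). The difference of 5.80 percentage points was 2.51 without siControl L and 3.42 without siDelta2-4 H. In the test of transcript usage within genes (edgeR diffSpliceDGE), SRSF7 had an adjusted p of 0.580 (unadjusted 0.0707), the smallest of the 6 members tested, and 0 members were called at an adjusted p under 0.1 or had an unadjusted p under 0.05, beside 0.618% and 9.63% of the 1132 genes tested.

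SRSF5, a further SR protein, had 25.3, 17.3 and 23.9 CPM in siControl and 20.0, 31.7 and 24.3 in siDelta2-4 (log2 fold change 0.19 ± 0.26, edgeR adjusted p = 0.711). SRSF6 had 17.5, 13.4 and 10.5 CPM against 11.5, 13.8 and 8.4 (log2 fold change -0.28 ± 0.33, edgeR adjusted p = 0.656). TRA2B, an SR-like activator of exons with purine-rich enhancers, had 21.4, 27.8 and 23.0 CPM against 20.7, 28.4 and 16.9 (log2 fold change -0.12 ± 0.26, edgeR adjusted p = 0.829). In each of these genes the groups overlapped. Their most counted known models were SRSF5-217 with 64 counts, SRSF6-201 with 79 and TRA2B-204 with 59.

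U2AF1 had 11.7, 13.4 and 10.5 CPM in siControl and 8.4, 9.8 and 10.3 in siDelta2-4. The groups did not overlap, though the log2 fold change of -0.33 ± 0.33 did not pass the test (edgeR adjusted p = 0.594) on 71 counts. Its transcripts use 1 of a pair of mutually exclusive coding exons of 67 bases, at chr21:43101366-43101432 and chr21:43100453-43100519, minus strand. They are shown whole, with the 23 of 67 bases that differ between them in capitals.
U2AF1 upstream exon: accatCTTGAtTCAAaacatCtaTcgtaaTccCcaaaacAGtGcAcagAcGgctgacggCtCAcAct
U2AF1 downstream exon: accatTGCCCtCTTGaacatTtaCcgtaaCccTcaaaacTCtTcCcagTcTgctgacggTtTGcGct
The upstream exon (U2AF1-202) was used in 0 of 12 counts in siControl H, which allows a share of up to 25%, and in 7.14% and 27.3% of counts in the other siControl libraries. In siDelta2-4 its share was 10.0%, 25.0% and 9.09%. Pooled, 9 counts held it and 61 held the downstream exon (U2AF1-201), 12.9% (Wilson 95% interval 6.91% to 22.7%), and no difference between groups was detectable at this depth (exact two-sided permutation p = 0.7). The difference of 3.23 percentage points ranged from -2.51 to 11.1 as each library was left out, the highest without siControl L.

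**Figure D4:**
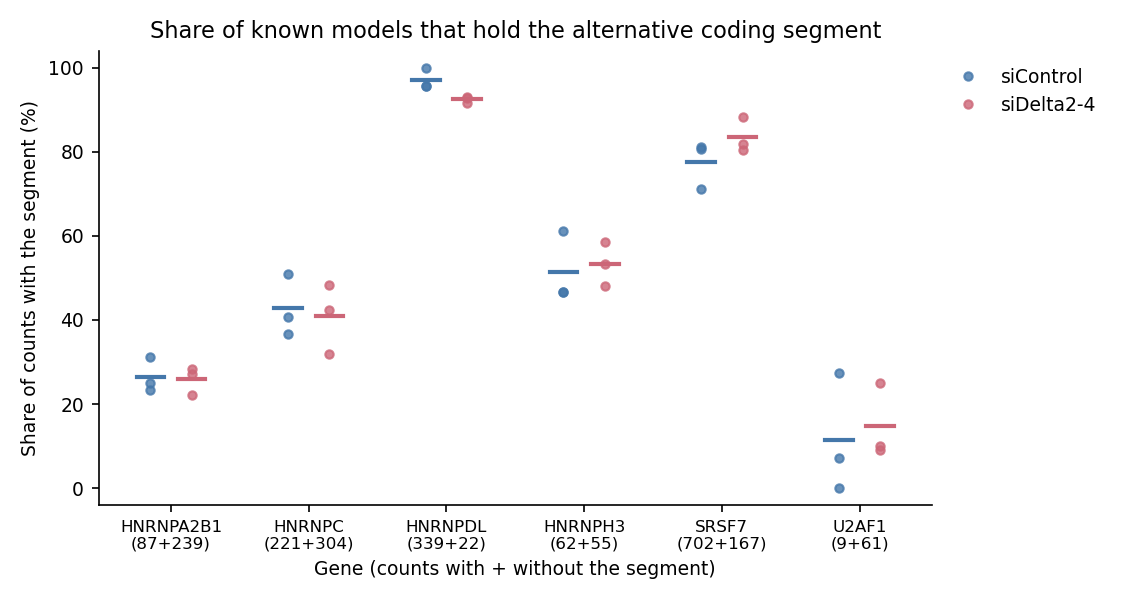
Share of the counts of both known forms (%) that held the alternative coding segment in 6 members, for each library (points) with the group mean (bar), siControl in blue and siDelta2-4 in red; the numbers under each gene are pooled counts with and without the segment. HNRNPDL is the gene whose groups do not overlap, at means of 97.1% and 92.5%, and U2AF1, with the fewest counts, spreads from 0% to 27.3%.

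The 18 members that did not pass the filter had between 1 and 56 counts over all libraries. SRSF9 had 56, HNRNPH2 55, HNRNPK 37, HNRNPH1 30, HNRNPA0 26, TRA2A 20, SRSF1 11, SRSF2 9, HNRNPD 8, HNRNPA1L2 7, HNRNPL 5 and HNRNPM 4, and SRSF8, SRSF10, SRSF11, HNRNPR, HNRNPAB and HNRNPU had 1 to 3 each. SRSF10, SRSF11, HNRNPL, HNRNPR, HNRNPAB and HNRNPU had 0 counts in every siControl library. Total counts this low in SRSF1, SRSF2, HNRNPU and HNRNPM, which most human cells express, limit what can be said of these genes here. TRA2A, a paralog of TRA2B and the member among them singled out after its values were seen, was read 8, 4 and 4 times in siControl and 1, 1 and 2 times in siDelta2-4, without overlap. When no filter was applied it was called lower (log2 fold change -2.12, edgeR adjusted p = 0.0905), the only setting in which a member was called lower. In that fit 416 of all 10072 genes were called. HNRNPH2 was also lower without overlap, at 8.8, 9.6 and 11.5 CPM in siControl and 3.8, 8.1 and 8.4 in siDelta2-4. HNRNPL had 0 counts in each siControl library and 1, 2 and 2 in siDelta2-4. Every member model in the table had counts in siDelta2-4, so a gene with 0 counts in siControl could only be higher. SRSF9 lies opposite DYNLL1, which had 1984 counts, and HNRNPU lies opposite COX20, which had 317; the strand setting of the counting was not given in the sources used here.

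Each count was assigned by TALON, the program that compares a long read's exon structure with the annotation, to a known model or to an unannotated class. An incomplete splice match (ISM) holds a consecutive part of an annotated exon chain, a model in the NIC class joins annotated splice sites in an unannotated combination, and a model in the NNC class has a splice site outside the annotation. Known models numbered 103 and took 82.5% of the members' counts (Wilson 95% interval 81.7% to 83.3%), against 59.5% over all annotated genes. ISM models took 6.87% against 31.6%, NIC models 9.61% against 7.75%, and NNC models 1.01% against 1.16%. These shares are descriptions of pooled counts, and their intervals cover counting error only. Within the members the known share was 90.5% in SRSF and TRA2 genes and 78.8% in hnRNP genes. The known share of all members was 81.9% ± 0.908 in siControl and 83.0% ± 1.43 in siDelta2-4.

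The 22 unannotated models lay in 9 members, and the shares differed widely among the 11 members with at least 100 counts. TRA2B had the highest share at 53.5%, all of it on 1 ISM model of 2 exons that matched the 3′ part of an annotated chain. SRSF5 followed at 45.0%, split between an ISM and a NIC model, then HNRNPA2B1 at 43.6%, all ISM, HNRNPH3 at 42.7%, all NIC, and HNRNPC at 38.4%, mostly NIC. HNRNPA3 had 17.1%, HNRNPA1 15.3% and SRSF3 7.33%, the last on 1 NNC model of 85 counts, which was the NNC model among the members. SRSF7, HNRNPDL and HNRNPF had no unannotated model in the table; since the authors kept such models only above a minimum count, this sets no upper limit. Among smaller members HNRNPK stood out, with 32 of 37 counts on 1 ISM model that matched the 5′ part of a chain.

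**Figure D5:**
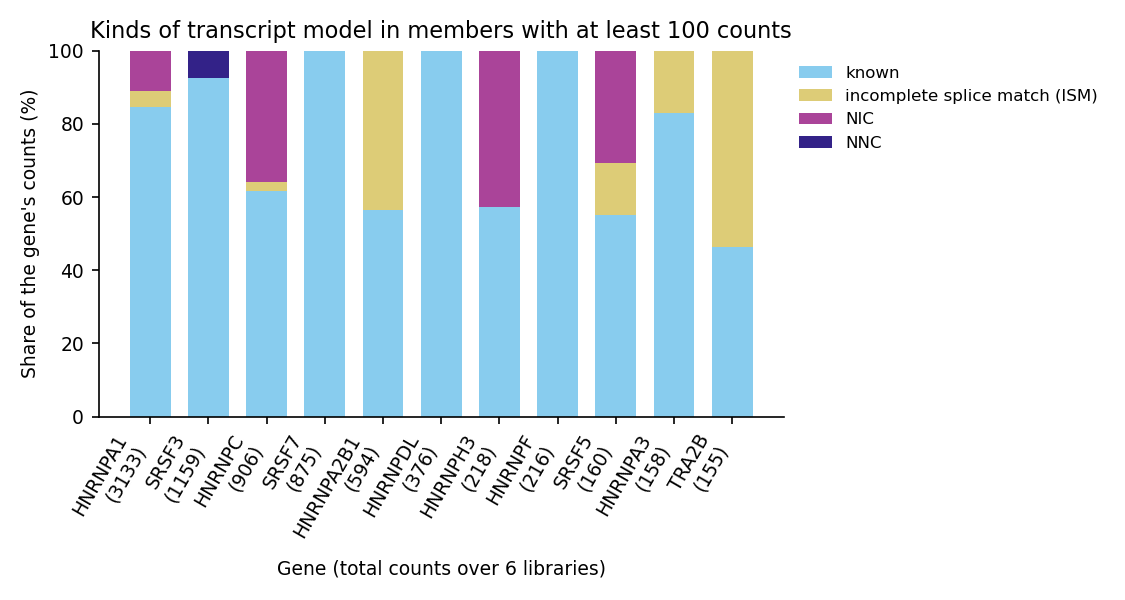
Share of each member's pooled counts (%) on known, ISM, NIC and NNC models, for the 11 members with at least 100 counts, ordered by count. TRA2B, SRSF5, HNRNPA2B1, HNRNPH3 and HNRNPC have unannotated shares of 38.4% to 53.5%, while SRSF7, HNRNPDL and HNRNPF are wholly on known models.

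Of the 8 members with at least 100 counts and both kinds of model, 1 had unannotated shares that did not overlap between groups, beside 11.2% of the 623 such genes. In HNRNPA2B1 the share was 56.5%, 55.3% and 43.9% in siControl and 36.9%, 37.9% and 38.6% in siDelta2-4. The siDelta2-4 libraries lay close together and below each siControl library, of which siControl L was nearest to them. Means were 51.9% ± 6.98 and 37.8% ± 0.834, a difference of -14.1 percentage points (exact two-sided permutation p = 0.1, the lowest value this design allows), and -18.1 points without siControl L. In the test of known against unannotated usage HNRNPA2B1 had an unadjusted p of 0.00831 and an adjusted p of 0.415 (edgeR diffSpliceDGE). Among the alternatives run it was called only without siControl L (adjusted p = 0.0218), beside 8 of the 396 genes tested there. With all libraries 0 of the 7 members tested were called, and 1 had an unadjusted p under 0.05, beside 1.08% and 5.91% of the 372 genes tested. All 4 unannotated HNRNPA2B1 models matched the 3′ part of annotated chains. HNRNPA2B1 is overlapped on the opposite strand by NFE2L3 (793 counts, 15987 bases) and CBX3 (1020 counts, 368 bases), and the part of reads from these genes in the share was not tested.

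In the other 7 members the groups overlapped. The largest difference was in SRSF5, with 46.2%, 33.3% and 32.0% in siControl and 46.2%, 48.7% and 57.7% in siDelta2-4 (exact two-sided permutation p = 0.2). That difference of 13.7 points was 3.82 with the same minimum applied to both groups. The table held an unannotated model only where it had at least 5 counts in every siDelta2-4 library. With splice-altering models alone the difference was -2.07 points. Of the 22 unannotated member models, 12 fell under 5 counts in some siControl library. TRA2B, at 54.5%, 65.5% and 41.7% against 44.4%, 57.1% and 55.6%, and SRSF3, at 5.73%, 12.8% and 5.70% against 5.63%, 6.22% and 8.42%, overlapped between groups (exact two-sided permutation p = 1 and 0.8).

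Known models of the members were also read by their annotated type, since many SR and hnRNP genes make transcripts that are decay targets. Models annotated as nonsense-mediated decay targets took 1.89% of the members' known counts (Wilson 95% interval 1.60% to 2.24%), against 0.857% over all annotated protein-coding genes. Of the members' 132 counts on such models, 94 fell on HNRNPA1-205 alone. In hnRNP genes the share was 2.50%, of which HNRNPA1-205 gave 94 of 115 counts, and HNRNPDL-202 gave 14. In SRSF and TRA2 genes it was 0.740%. Models with a retained intron took 3.00% of known counts in SRSF and TRA2 genes and 0.739% in hnRNP genes, against 1.67% over all protein-coding genes. SRSF9 contributed 25 retained-intron counts, SRSF3 16 and TRA2B 13. The decay-target share of all members was 1.54% ± 0.414 in siControl and 2.18% ± 0.166 in siDelta2-4, and that of all protein-coding genes was 0.805% ± 0.050 and 0.903% ± 0.021, both given as descriptions with no test.

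Other RNA-binding splicing regulators were read from a list of 56 genes, of which 37 were in the table and 10 passed the filter. Of these 2 were called higher, 0 were called lower and 8 were not called, with a median log2 fold change of 0.05, beside 13% of all genes tested (7% higher and 5.97% lower) and a median of 0.03. RALY, an hnRNP C relative, had 26.3, 33.6 and 55.6 CPM in siControl and 59.9, 82.1 and 60.9 in siDelta2-4 (log2 fold change 0.81 ± 0.21, edgeR adjusted p = 0.0171). Its opposite-strand neighbour EIF2S2, which overlaps it by 20000 bases, was also higher (485 counts, log2 fold change 0.57, adjusted p = 0.0240), and the part of shared reads was not tested. The RALY groups did not overlap, though siControl L lay near the lowest siDelta2-4 value. ACIN1, an exon junction partner with an SR-like domain, had 69.2, 61.4 and 64.2 CPM in siControl and 92.8, 89.4 and 86.1 in siDelta2-4 (log2 fold change 0.46 ± 0.15, edgeR adjusted p = 0.0475), and overlaps C14orf119 on the opposite strand by 110 bases (571 counts, log2 fold change 0.16, adjusted p = 0.543). Of 16 SR protein kinases, phosphatases and nuclear transport factors 1 was tested and 0 were called (log2 fold change -0.11), and of 15 exon junction and nonsense-mediated decay genes 3 were tested and 0 were called (median 0.02), beside the same 13%.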

How the data were processed

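Libraries of poly(A) RNA were made with a PCR-cDNA kit, pooled and sequenced on 1 nanopore flow cell. The deposited values were raw read counts for each transcript model. The authors obtained them by aligning reads to GRCh38.p14 with minimap2 2.14, sorting with SAMtools 1.13, correcting with TranscriptClean and annotating with TALON against Gencode 44, with a minimum of 5 reads in 3 samples for an unannotated model. In the table every unannotated model had at least 5 counts in each siDelta2-4 library. All member models, known or unannotated, had counts in siDelta2-4, whereas 27 had 0 counts in siControl. Group comparisons of library, known and decay-target shares were made on these rows, and the effect of this on them was not tested. Counts were not divided by length, since 1 long read stands for 1 cDNA.

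Each column's group followed from the siRNA it named, and 0 columns of samples were unused. Their numbers could not be tied to the labels. Counts were summed per gene and tested with edgeR 4.0.16 (R 4.3.3): filterByExpr, TMM, quasi-likelihood fit of both groups, two-sided tests, Benjamini-Hochberg adjustment over all genes and calls at an adjusted p under 0.1. Models were tested likewise, and usage with diffSpliceDGE; these steps were tested on simulated data. The SE is the log2 fold change over the square root of F. Shares were compared with exact permutation tests in SciPy 1.17.1, and Wilson intervals cover counting error only. At totals of 1037468 to 1309241 counts, 21 of the 32 members had under 100 counts. Segment sequences were taken from Gencode 44 transcripts, and 1 further segment is not reported here.

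Values by library are given for called members, for the 3 highest and 3 lowest log2 fold changes among tested members not called, for the 3 SR or TRA2 and 5 hnRNP genes with most counts, for the 4 highest and 4 lowest unannotated shares, and for U2AF1. Members and lists were chosen with earlier results of these data known. The Wald test of DESeq2 1.42.0 and its size factors were alternatives, as were unscaled totals, other filters and thresholds, the same minimum counts for models of both groups, known models alone, removal of each library's loess trend on model length (span 0.4), a block on the column number, splice-altering models alone for shares, and each library left out.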

Additional observations from a re-analysis of the deposited data

How the results depend on the processing

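The count of called member genes, 2, was 1 (HNRNPDL) with the DESeq2 Wald test, DESeq2 size factors, an adjusted p under 0.05, the same minimum counts for both groups, known models alone, the length trend removed, and a block on the column number, and 1 to 3 when a library was left out, with 3 without siControl L (HNRNPH3 was added). Without siControl L 1041 of all 4098 genes tested were called, against 504 of 3888 with all libraries. For models these numbers were 1113 of 7285 and 468 of 6768. Without a filter 2 member genes were called, HNRNPDL and TRA2A, beside 416 of all 10072 genes. The count of called models, 1, was 2 with unscaled library totals, at least 10 counts in every library, or the same minimum for both groups, 0 with the length trend removed, and 0 to 3 when a library was left out, 0 without siControl M or siDelta2-4 M and 3 without siControl L. Usage of known against unannotated models gave 0 to 1 calls and unannotated shares 1 to 3 members without overlap when a library was left out (SRSF5 and HNRNPA1 joined HNRNPA2B1 without siControl H, HNRNPH3 without siControl L, SRSF5 without siDelta2-4 H). With splice-altering models alone 0 members were without overlap, since HNRNPA2B1 then has no unannotated model. The log2 fold change changed sign for SRSF5 (-0.058 with the same minimum for both groups, -0.17 with known models alone), for SRSF3 (-0.14) and HNRNPA2B1 (-0.10) with the length trend removed, and for SRSF7 (0.027 with unscaled totals). With 1 library left out the ranges that crossed 0 were -0.012 to 0.34 for SRSF5, -0.059 to 0.096 for SRSF3, -0.11 to 0.031 for SRSF7, -0.13 to 0.26 for HNRNPA2B1, -0.35 to 0.019 for TRA2B and -0.016 to 0.41 for HNRNPA1L3. Apart from the construction named for HNRNPA2B1, the cause was not tested. Deviations of libraries with the same column number had correlations of 0.04, -0.14 and -0.08. With 1 correlation per number this cannot settle whether such libraries were paired, and the labels do not say. The block gave 299 calls over all genes against 504. Of 332 values for single members under alternatives, 301 kept direction and call or, for shares, moved by less than the spread between replicates. Among log2 fold changes, 16 lost the call, 12 changed sign and 1 gained a call. Among shares, 2 moved by more than the spread (the SRSF5 unannotated share, 3.82 and -2.07 points against 13.7). Share differences that changed sign within the spread are among the 301, such as that of TRA2B (-1.53 points, and 4.27 without siControl M). Depth limits the 18 members below the filter. The fit without a filter tested all 32 members, and some fits with a library left out tested 15, against 14 with all libraries.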
